A study of Mus musculus with 16 samples.

Results

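Fc receptors and the signaling proteins downstream of them were examined as 10 genes in the CD11b+ fraction of mouse brain cells. The genes were taken by name from the count table, and the set was chosen with earlier results of these data known: the Fc gamma receptors Fcgr1, Fcgr2b, Fcgr3, and Fcgr4, the neonatal Fc receptor Fcgrt, the signaling chain Fcer1g, the kinase Syk, the phospholipase Plcg2, the exchange factor Vav1, and the lipid phosphatase Inpp5d. The table lists 24421 rows, 14565 genes passed the filter on low counts, and all 10 genes were among them.

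Fc gamma receptors bind the constant part of IgG. Fcgr1, Fcgr3, and Fcgr4 activate cells through Fcer1g, a small chain that carries an immunoreceptor tyrosine-based activation motif (ITAM). Src family kinases phosphorylate the ITAM, Syk docks on it, and Plcg2 and Vav1 carry the signal to calcium and to the actin cytoskeleton. Fcgr2b carries the opposite kind of motif (ITIM) and recruits Inpp5d (SHIP1), which removes a phosphate from the membrane lipid PIP3 and dampens the response. Fcgrt protects IgG from degradation inside cells and uses no ITAM. Microglia, the resident macrophages of the brain, express all of these genes and use the same chain of kinases and effectors behind Trem2 and other ITAM-coupled receptors.

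CON mice were on a standard chow diet, and MAL and MAL-BG mice were on an isocaloric diet low in protein and fat for 1 month after weaning. MAL-BG mice also received oral gavages of E. coli and Bacteroidales species, while CON and MAL mice received PBS gavages. All mice were female C57BL/6J and 3 weeks old on arrival, and there was no group with bacteria on the standard diet, so bacteria were tested only on the malnourished diet. RNA-Seq covered 16 libraries of cells held by CD11b magnetic beads, with 7 from MAL-BG, 5 from MAL, and 4 from CON mice. The labels name cortical tissue and the Methods whole cerebra, and neither states that each library stands for a separate mouse, so p values measure the spread between libraries.

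Library totals were 10312703 to 13461574 counts in CON, 10864121 to 12819982 in MAL, and 14191791 to 18705202 in MAL-BG. The 8 microglia markers summed to 11417 to 18870 CPM (counts relative to library size) in CON, 12072 to 21295 in MAL, and 27183 to 40663 in MAL-BG, and none of them was at 0. The 6 choroid plexus markers, led by Ttr, summed to 10502 to 40582 CPM in CON, 4886 to 31930 in MAL, and 1451 to 12883 in MAL-BG. The 10 neutrophil markers measured summed to 55.9 to 199 CPM in CON, 45.1 to 334 in MAL, and 197 to 12982 in MAL-BG, with the highest sum in MAL-BG 5. CON 1 and MAL 4 stood apart from the other 7 libraries without bacteria, with the highest sums of microglia and border macrophage markers. Their choroid plexus sums of 10502 and 4886 CPM were the lowest of their groups. In bulk samples, fewer cells of a type and less RNA per cell cannot be told apart.

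Of the 10 genes, 4 lie within a short stretch of chromosome 1 (GRCm38, GENCODE annotation). Fcgr2b spans chr1:170958617-170976547 on the minus strand, Fcgr4 chr1:171018920-171029761 on the plus strand, Fcgr3 chr1:171051174-171064935 on the minus strand, and Fcer1g chr1:171229572-171234365 on the minus strand. Inpp5d lies elsewhere on the same chromosome (chr1:87620312-87720507, plus strand). The others are at chr3:96282909-96293969 (Fcgr1, minus), chr7:45092990-45103851 (Fcgrt, minus), chr13:52583173-52648792 (Syk, plus), chr8:117498291-117635142 (Plcg2, plus), and chr17:57279100-57328031 (Vav1, plus).

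Fcgr2b and Fcgr3 are close paralogs, which bears on how short reads are assigned between an inhibitory and an activating receptor. Of 1733 stretches of 42 bases (1 read length) in the exons of Fcgr3, 190 (10.96%) also occur in Fcgr2b. The longest shared run is 129 bases of coding sequence, spread over 2 exons in each gene, within chr1:170966674-170968081 for Fcgr2b and chr1:171054167-171057792 for Fcgr3, both on the minus strand. It was read from the GENCODE transcripts and is shown because reads that lie wholly inside it cannot tell the 2 receptors apart.
Fcgr2b and Fcgr3: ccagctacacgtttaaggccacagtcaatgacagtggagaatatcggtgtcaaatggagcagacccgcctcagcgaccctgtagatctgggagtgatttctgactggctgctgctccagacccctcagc
Of 5653 stretches of 42 bases in Fcgr2b, 414 (7.32%) also occur in other genes, with 190 (3.36%) in Fcgr3. Fcgr1, Fcgr4, Fcer1g, Syk, Plcg2, and Vav1 shared 0 such stretches with any other gene, Fcgrt 0.187%, and Inpp5d 0.677%. An annotated antisense gene, Gm38204, overlaps exons of Fcgr2b, and the strand setting used for counting is not given in the sources used here.

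The starts of the genes were searched for the binding motif of PU.1, the transcription factor that defines the macrophage lineage. RefSeq windows from 250 bases before to 50 bases after the start (GRCm38.p6) were found for all 10 genes. On either strand, the motif GAGGAAGT was in windows of 3 of them, Fcgr4, Vav1, and Inpp5d, and in 3.69% of all 27025 genes. Its shorter and overlapping parts were less selective, with GAGGAA in 6 of the 10 genes and 31.3% of all, and GGAAGT in 6 of the 10 and 26.5% of all. A STAT-type motif, TTCNNNGAA, occurred in Fcgr1 alone of the 10 and in 9.55% of all genes. These are matches of letters and were not measured as binding.

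The 120 bases before and 20 bases after the start are shown for 4 genes called higher in MAL-BG versus CON, 5' to 3' along the gene, with GAGGAAGT or its reverse complement in capitals in Fcgr4, Vav1, and Inpp5d, and TTCNNNGAA in capitals in Fcgr1. They span chr3:96293950-96294089 (minus), chr1:171018806-171018945 (plus), chr17:57278980-57279119 (plus), and chr1:87620192-87620331 (plus).
Fcgr1: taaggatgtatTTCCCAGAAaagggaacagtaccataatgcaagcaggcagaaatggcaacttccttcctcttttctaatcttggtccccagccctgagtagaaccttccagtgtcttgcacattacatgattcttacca
Fcgr4: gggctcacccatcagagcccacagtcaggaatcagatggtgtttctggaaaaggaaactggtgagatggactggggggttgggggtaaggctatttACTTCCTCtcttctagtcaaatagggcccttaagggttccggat
Vav1: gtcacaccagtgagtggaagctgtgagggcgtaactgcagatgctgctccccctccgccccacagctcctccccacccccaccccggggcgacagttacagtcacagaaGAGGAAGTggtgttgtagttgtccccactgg
Inpp5d: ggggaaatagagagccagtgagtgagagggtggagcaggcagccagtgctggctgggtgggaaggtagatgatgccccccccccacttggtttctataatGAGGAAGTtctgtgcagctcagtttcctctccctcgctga

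Levels are compared between genes as CPM per kilobase of the longest coding transcript. Fcer1g was the most abundant (753 ± 174 CPM per kb, SD, n = 16 libraries), followed by Fcgr3 (414 ± 133). Inpp5d (178 ± 50.1), Vav1 (159 ± 54.7), Fcgrt (119 ± 51.9), and Fcgr1 (113 ± 40.5) followed, and neighbours in this order differed by less than their SD. Fcgr2b (53.0 ± 15.3), Syk (44.0 ± 9.76), and Plcg2 (39.0 ± 8.91) were lower and also differed by less than their SD, and Fcgr4 was lowest (17.2 ± 4.66). The place of Fcgr2b depends on the transcript, since its shortest coding transcript gives 173 CPM per kb.

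**Figure D1:**
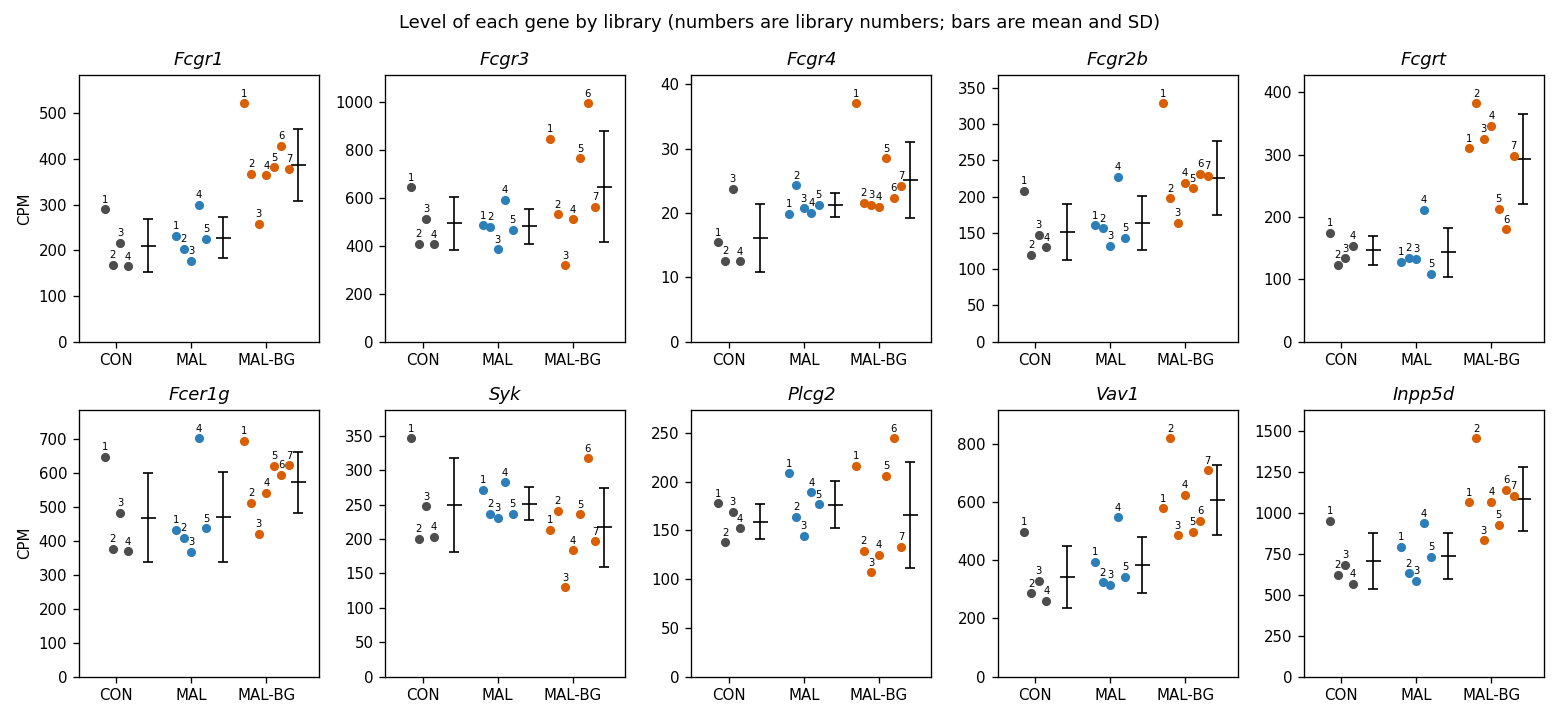
Level of each of the 10 genes in CPM (vertical axis, linear, from 0) in every CON, MAL, and MAL-BG library. Points are libraries with their number, and the black bar beside each group is the mean with its SD. Fcgrt is the gene whose MAL-BG libraries, from 180.1 CPM upward, all lie above the CON libraries.

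The first question was whether malnutrition together with the bacteria changed these genes against healthy controls. A gene was called when the adjusted p of edgeR's quasi-likelihood test (Benjamini-Hochberg over all 14565 genes) was under 0.05 and the absolute log2 fold change above 0.58. In MAL-BG versus CON, 5 of the 10 genes were called higher, namely Fcgrt, Fcgr1, Vav1, Fcgr4, and Inpp5d, and 0 were called lower. Across all genes tested, 11.4% were called higher and 21.7% lower. The median log2 difference was 0.60 over the 10 genes and -0.04 over all genes tested. By adjusted p alone 6 of the 10 were higher (19.8% of all genes), the added gene being Fcgr2b.

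Fcgrt, which salvages IgG and albumin from lysosomal breakdown, showed the largest difference of the 10. It was at 175, 123, 134, and 154 CPM in CON 1 to 4, at 128, 135, 133, 212, and 109 CPM in MAL 1 to 5, and between 180.1 and 382 CPM in MAL-BG (median 310.3). The 7 MAL-BG values did not overlap the 4 CON values, an arrangement with MAL-BG on top found for 9.83% of all genes tested, while MAL 4 reached into the MAL-BG range. Fcgrt rose by 1.0036 on the log2 scale against CON (SE 0.211, edgeR adjusted p = 0.00126) and by 1.04 against MAL (SE 0.195, adjusted p = 0.000606). Levels within MAL-BG were uneven, with 180.1 CPM in MAL-BG 6 and 213 in MAL-BG 5 against at least 298 CPM in the other 5.

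Fcgr1 encodes the high affinity IgG receptor. Its level was 289.6, 169, 216, and 165 CPM in CON 1 to 4, 232, 204, 178, 299, and 226 CPM in MAL 1 to 5, and 259 to 522 CPM in MAL-BG (median 379). Only MAL-BG 3 lay below the highest CON and MAL libraries, which were CON 1 and MAL 4. Fcgr1 rose by 0.88 on the log2 scale against CON (SE 0.194, edgeR adjusted p = 0.00181) and by 0.76 against MAL (SE 0.179, adjusted p = 0.00286).

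Fcgr4, an intermediate affinity activating receptor and the scarcest gene of the set, stood at 15.4, 12.6, 23.8, and 12.5 CPM in CON 1 to 4. MAL libraries held 19.9, 24.3, 20.7, 19.98, and 21.3 CPM, and MAL-BG libraries 20.9 to 37.0 CPM (median 22.3). MAL-BG libraries thus lay above 3 of the 4 CON libraries and largely beside the MAL libraries. Fcgr4 was called against CON (log2 difference 0.64, SE 0.193, edgeR adjusted p = 0.0125) but not against MAL (0.24, SE 0.176, adjusted p = 0.274). The call against CON was lost without CON 2 (0.53, adjusted p = 0.0609), without CON 4 (0.53, adjusted p = 0.0604), and, by its size alone, without MAL-BG 1 (0.57).

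Fcgr3, the low affinity activating receptor, was not called in either comparison. It was at 645, 410.1, 514, and 407 CPM in CON 1 to 4, at 487, 481, 386, 593, and 469 CPM in MAL 1 to 5, and at 319 to 996 CPM in MAL-BG (median 563). The lowest and the highest of all 16 libraries were both MAL-BG, numbers 3 and 6. Its log2 difference was 0.39 against CON (95% interval -0.12 to 0.90, edgeR adjusted p = 0.201) and 0.42 against MAL (-0.05 to 0.90, adjusted p = 0.136).

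Fcgr2b, the inhibitory receptor, was at 207, 119.9, 147, and 130.1 CPM in CON 1 to 4, at 160.2, 156, 132, 227, and 143 CPM in MAL 1 to 5, and at 164 to 328 CPM in MAL-BG (median 219). Its values lay just beside the fold threshold, and the groups overlapped through CON 1 and MAL 4. The log2 difference was 0.579 against CON (SE 0.192, edgeR adjusted p = 0.0217) and 0.46 against MAL (SE 0.178, adjusted p = 0.0437), and Fcgr2b was therefore not called. Against CON it was called in 6 of the 16 fits that left out 1 library each, without CON 1 (0.76, adjusted p = 0.00516) or without MAL-BG 2, 3, 4, 5, or 7 (0.58 to 0.67). It was also called with DESeq2 (0.60) and without the filter on low counts (0.60). With offsets for length and GC content, which also replaced TMM by mean log2 CPM scaling, it was called at 0.89. Relative to the median of all genes, Fcgr2b was at 0.65 with these offsets and at 0.62 in the main fit. Against MAL it was called without MAL 4 (0.60, adjusted p = 0.0111) and with the offsets (0.78).

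Fcer1g, the ITAM chain shared by the activating receptors, was at 648, 377, 482, and 369 CPM in CON 1 to 4, at 432, 408, 368, 703, and 437 CPM in MAL 1 to 5, and at 420.2 to 694 CPM in MAL-BG (median 594). CON 1 and MAL 4 were as high as the upper MAL-BG libraries. The log2 difference was 0.29 against CON (95% interval -0.12 to 0.70, edgeR adjusted p = 0.238) and 0.28 against MAL (-0.10 to 0.66, adjusted p = 0.208).

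Syk, the kinase that docks on phosphorylated ITAMs, did not follow the receptors. It was at 347, 199.9, 248, and 203 CPM in CON 1 to 4, at 272, 237, 231, 282, and 236 CPM in MAL 1 to 5, and at 129.6 to 318 CPM in MAL-BG (median 213). The groups overlapped widely. Log2 differences were -0.20 against CON (95% interval -0.61 to 0.21, edgeR adjusted p = 0.415) and -0.22 against MAL (-0.60 to 0.17, adjusted p = 0.347).

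Plcg2, which produces the second messengers for calcium release, was at 178, 138, 169, and 152 CPM in CON 1 to 4, at 209, 164, 144, 189, and 177 CPM in MAL 1 to 5, and at 107 to 245 CPM in MAL-BG (median 133). MAL-BG 1, 5, and 6 held 216, 206, and 245 CPM, while MAL-BG 2, 3, 4, and 7 held 129, 107, 125, and 133 CPM, below all CON and MAL libraries. The differences of the means were small, at 0.06 on the log2 scale against CON (95% interval -0.37 to 0.49, edgeR adjusted p = 0.8292) and -0.09 against MAL (-0.49 to 0.31, adjusted p = 0.719). These 3 libraries were also the highest in MAL-BG for Fcgr3 (848, 766, and 996 CPM), and MAL-BG 5 and 6 were the lowest for Fcgrt.

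Vav1, the guanine nucleotide exchange factor for Rac, was at 498, 286, 328, and 259.9 CPM in CON 1 to 4, at 395, 324, 316, 548, and 342 CPM in MAL 1 to 5, and at 486 to 821 CPM in MAL-BG (median 579). Of the 9 other libraries, only CON 1 and MAL 4 reached the lowest MAL-BG level. Vav1 rose by 0.83 on the log2 scale against CON (SE 0.206, edgeR adjusted p = 0.00408) and by 0.66 against MAL (SE 0.189, adjusted p = 0.0101).

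Inpp5d, the phosphatase of the inhibitory branch, was at 953, 621, 684, and 566 CPM in CON 1 to 4, at 794, 632, 583, 936, and 732 CPM in MAL 1 to 5, and at 833 to 1457 CPM in MAL-BG (median 1069). As for Vav1, CON 1 and MAL 4 were the libraries that overlapped MAL-BG. Inpp5d rose by 0.62 on the log2 scale against CON (SE 0.178, edgeR adjusted p = 0.00955). Against MAL the difference of 0.56 passed the adjusted p (SE 0.165, adjusted p = 0.0113) but not the fold threshold. It passed both in 7 of the 16 fits that left out 1 library each, without MAL 1 or 4 or MAL-BG 1, 3, 4, 5, or 7 (0.58 to 0.65), and also with DESeq2 (0.59) and with the offsets (0.97). The call against CON was lost by its size without CON 2 (0.55), without CON 4 (0.52), and with more than 50 counts required (0.576).

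**Figure D2:**
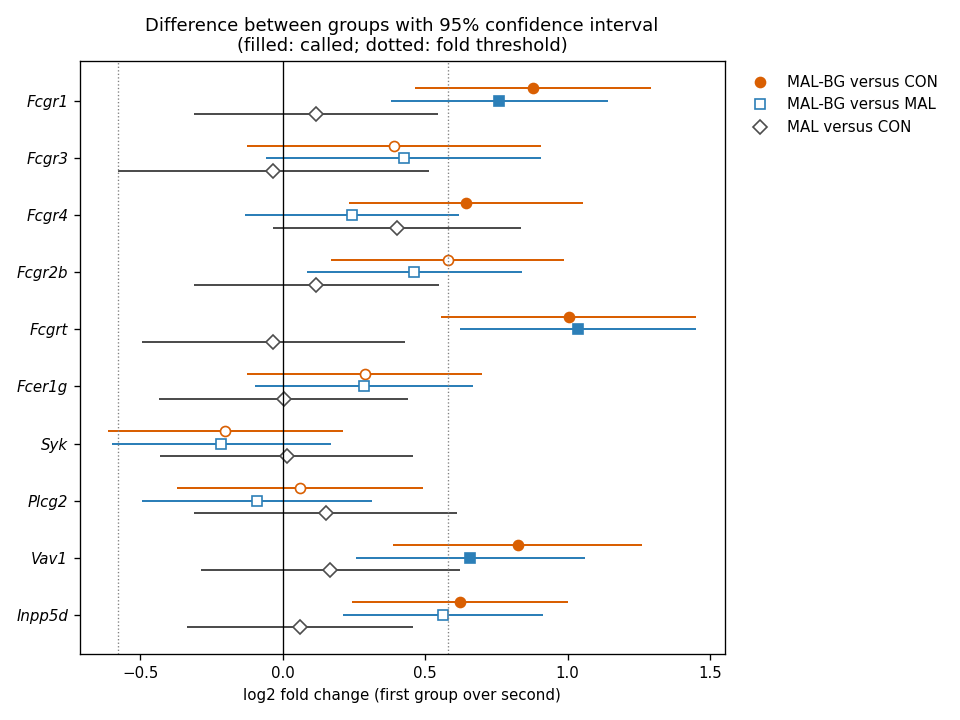
Log2 fold changes of the 10 genes (horizontal axis) with their 95% confidence intervals from edgeR, for MAL-BG versus CON, MAL-BG versus MAL, and MAL versus CON. Filled symbols are called and dotted lines are the fold threshold of 0.58. The MAL versus CON intervals all include 0.

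The second question was what the bacteria added on the malnourished diet. In MAL-BG versus MAL, 3 of the 10 genes were called higher (Fcgrt, Fcgr1, and Vav1) and 0 lower, against 10.2% and 20.2% of all genes tested. By adjusted p alone 5 were higher, with Inpp5d and Fcgr2b added, and 20.2% of all genes were. None of the 10 had every MAL-BG library above every MAL library, an arrangement found for 7.86% of all genes. The 2 MAL-BG comparisons share the MAL-BG libraries, so their likeness is not independent. Without CON 1 and MAL 4 together, a fit chosen after seeing the data, 6 of the 10 genes were called higher against CON and 5 against MAL. Calls over all genes rose as well. They went from 1659 of 14565 to 2532 of 14513 genes higher against CON, and from 1479 to 2192 against MAL.

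The third question was the effect of diet alone. In MAL versus CON, 0 of the 10 genes were called by edgeR or by DESeq2, 0 had an unadjusted p under 0.05 in edgeR, and 0% of all genes tested were called. Log2 differences ran from -0.03 (Fcgr3 and Fcgrt) to 0.40 (Fcgr4, 95% interval -0.03 to 0.83, edgeR adjusted p = 0.999). For the other 9 genes, the intervals reached down to -0.58 and up to 0.62 on the log2 scale, so differences inside the interval of a gene were not excluded.

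Markers of several cell types moved together with these differences. Of the 8 microglia markers, 6 were called higher in MAL-BG versus CON, with a median log2 difference of 0.96 over the 8. The summed microglia markers were higher in every MAL-BG library than in every other library (two-sided exact permutation test over libraries, p = 0.00606 against CON and p = 0.00253 against MAL, adjusted over 33 marker tests p = 0.0286 and p = 0.0278). All 6 choroid plexus markers were called lower and all 10 neutrophil markers higher against CON. Of 6 astrocyte markers, 4 were called lower against CON (median log2 difference -2.22), and their sums were 264 to 578 CPM in CON, 319 to 519.8 in MAL, and 136 to 238 in MAL-BG (exact permutation test, adjusted p = 0.0286 against CON and p = 0.0278 against MAL). Of 6 neuron markers, 5 were called lower (median -2.59), with sums of 32.4 to 179 CPM in CON and 14.1 to 59.0 in MAL-BG. The neuron sums overlapped between groups (exact permutation test, adjusted p = 0.0615 against CON and p = 0.0286 against MAL). Oligodendrocyte markers went the other way, with 3 of 6 called higher and 0 lower against CON (median log2 difference 0.54). Their sums overlapped, at 407 to 1062 CPM in CON and 482 to 1203 in MAL-BG (exact permutation test, adjusted p = 0.716 against CON). Against CON, 3 of 10 monocyte markers were called lower and 0 higher. For border macrophages, 1 of 9 markers was called lower and 0 higher. Summed T and NK cell markers were 60.6 to 151 CPM in MAL-BG, 24.4 to 38.4 in CON, and 20.8 to 30.1 in MAL. This sum was mostly Gzma, with a mean of 95.2 of 115 CPM in MAL-BG. The T cell genes Cd3d, Cd3e, Cd3g, and Cd8a reached at most 0.890 CPM in any library. The part of these cells in the results was not tested. Without MAL-BG 5, the library with the highest neutrophil sum, 6 of the 10 genes and 1620 of all 14505 were called higher against CON. The added gene was Fcgr2b, at 0.581 in place of 0.579, beside the threshold of 0.58. The remaining MAL-BG libraries still had neutrophil sums of 197 to 2979 CPM, against 55.9 to 199 in CON. This fit therefore does not test the part of neutrophils.

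When the libraries were instead set to the same microglia marker level, the median of all genes tested moved to -1.30 in MAL-BG versus CON. All 10 genes then had negative log2 differences, from -0.27 (Fcgrt) to -1.40 (Syk), and 7 were called lower, as were 12578 of all 14565 genes. Relative to the median of all genes, 9 of the 10 lay above it under this scaling, from 0.13 (Plcg2) to 1.02 (Fcgrt), and Syk was 0.11 below. A change of scaling moves all genes by nearly the same amount. The place of the 10 genes relative to the median was thus fixed in advance and is no separate check. The directions given above are thus directions relative to the bulk of the RNA in each library, and per unit of microglia marker RNA they turn.

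**Figure D3:**
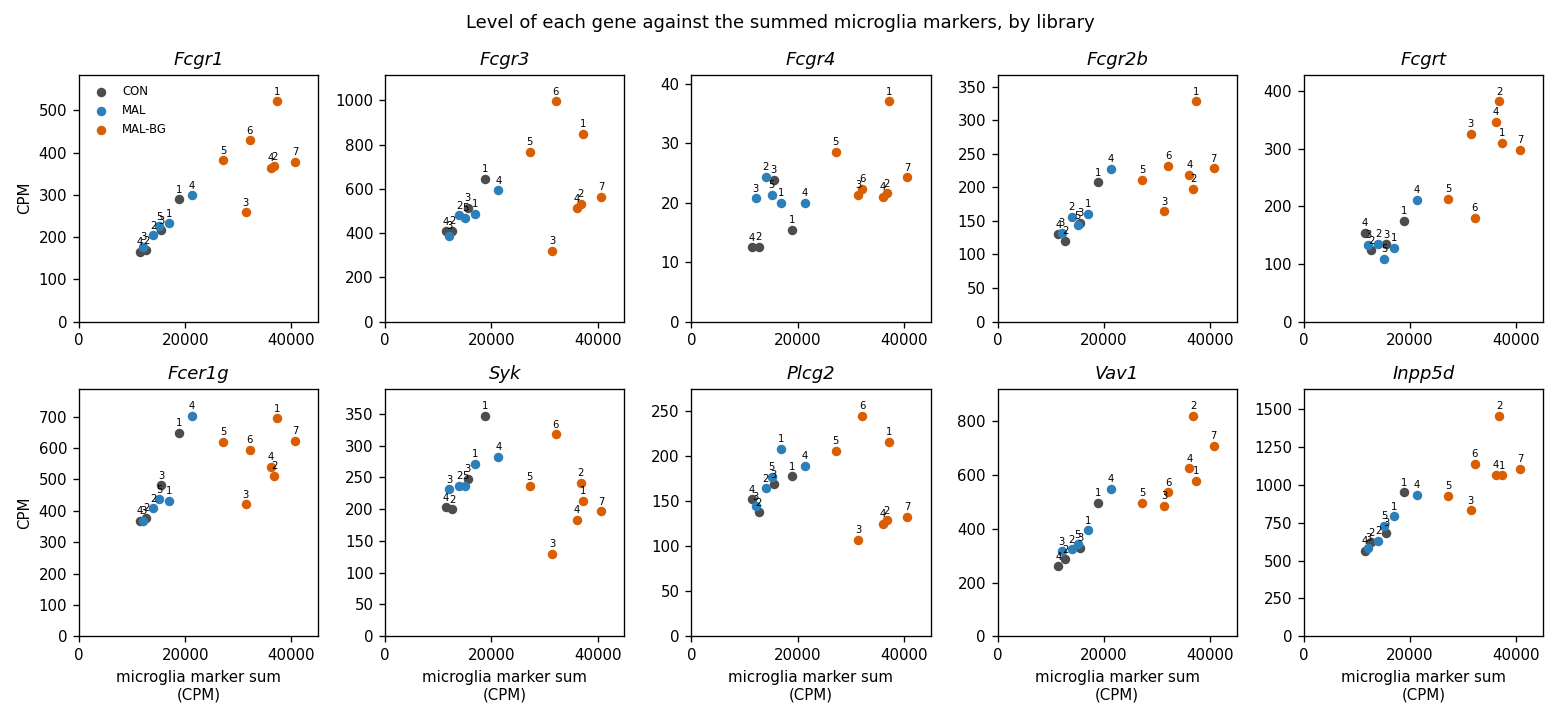
Level of each gene in CPM (vertical axis) against the summed CPM of 8 microglia markers (horizontal axis), 1 point per library with its number. Vav1, Inpp5d, and Fcgr1 increase with the marker sum, while Syk and Plcg2 show no such increase over all 16 libraries.

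Across the 16 libraries, log2 CPM of Vav1 (r = 0.93), Fcgr1 (r = 0.92), Inpp5d (r = 0.91), and Fcgrt (r = 0.89) followed the microglia marker sum, and Syk (r = -0.19) and Plcg2 (r = -0.06) did not (Pearson). The highest r of Fcgrt was with the T and NK cell sum (0.91), which was mostly Gzma. Vav1 and Inpp5d ran opposite to the choroid plexus sum (r = -0.90 and r = -0.93), and Fcgr1 opposite to the astrocyte (r = -0.90) and neuron sums (r = -0.89). Syk ran opposite to the sum of endothelium markers (r = -0.84), and Plcg2 did so less closely (r = -0.55). Between pairs of the 10 genes, r was highest for Vav1 with Inpp5d (0.97) and for Fcgr1 with Fcgr2b (0.95), and lowest for Fcgrt with Syk (-0.39). These points share the groups and the cell makeup of the libraries, and the values are descriptions. The 5 genes most like Fcer1g across the libraries were Bmyc (r = 0.93), Pmp22 (r = 0.92), Fcrl1 (r = 0.92), Fcgr2b (r = 0.91), and Letmd1 (r = 0.91).

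Shares and ratios within a library do not depend on how libraries are scaled. Among the 4 Fc gamma receptors, counted per kilobase, Fcgr3 made up 73.0% ± 0.569 (SD) in CON (n = 4), 70.4% ± 0.838 in MAL (n = 5), and 66.3% ± 5.19 in MAL-BG (n = 7). Fcgr1 made up 16.004% ± 0.626, 17.2% ± 0.934, and 21.5% ± 2.95. The share of Fcgr3 ranged from 59.2% to 74.8% within MAL-BG, so MAL-BG libraries lay on both sides of the other 9. Fcgr2b took 8.45% ± 0.499, 9.02% ± 0.691, and 9.26% ± 1.71, and Fcgr4 took 2.57% ± 0.736, 3.39% ± 0.618, and 2.94% ± 0.716. Depth was not limiting for these shares, since Fcgr4, the scarcest, had at least 136 counts in each library, and the spread between libraries set the precision.

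**Figure D4:**
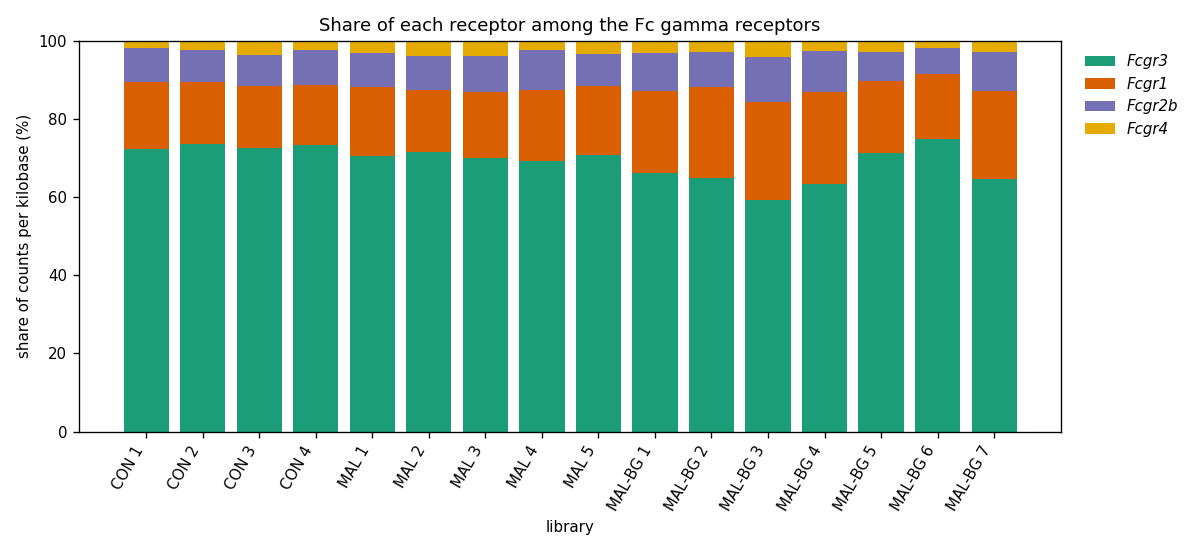
Share of each Fc gamma receptor in percent (vertical axis, 0 to 100) among the summed counts per kilobase of the 4 receptors, 1 bar per library. The Fcgr3 part is lowest in MAL-BG 3 at 59.2% and highest in MAL-BG 6 at 74.8%.

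Of the 45 ratios between pairs of the 10 genes, 6 did not overlap between the 7 MAL-BG libraries and the other 9. Among all 106062330 pairs of genes tested, 12.4% were separated in this way, so the number of separated pairs was near the background and the ratios named here were chosen after their values were seen. Fcgr1 per Fcer1g was 0.672 ± 0.0596 in MAL-BG, 0.448 ± 0.00097 in CON, and 0.4926 ± 0.0425 in MAL, from 0.609 upward in MAL-BG and to 0.538 at most elsewhere. Fcgr1 per Fcgr2b, an activating over an inhibitory receptor, was 1.72 ± 0.122 in MAL-BG, 1.39 ± 0.0847 in CON, and 1.40 ± 0.115 in MAL, and its highest MAL value of 1.5756 (MAL 5) lay directly below its lowest MAL-BG value of 1.5758 (MAL-BG 3). Syk per Inpp5d was lower in MAL-BG, at 0.201 ± 0.0475 in MAL-BG against 0.352 ± 0.0199 in CON and 0.348 ± 0.0384 in MAL. The other separated ratios were Fcgr1 per Syk, Fcgr1 per Plcg2, and Fcgr3 per Syk, all higher in MAL-BG.

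**Figure D5:**
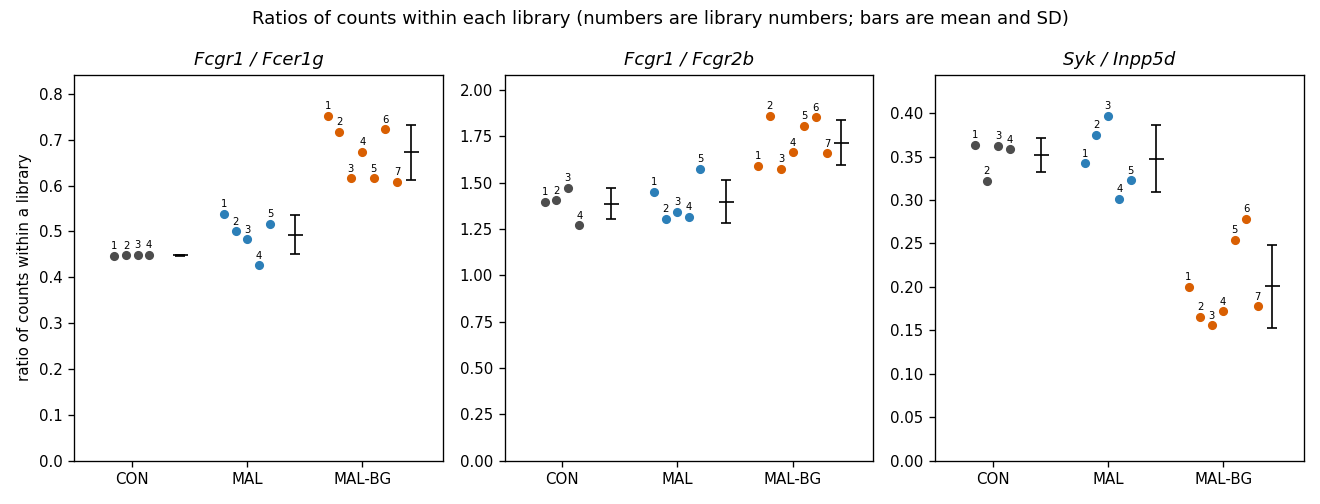
Ratios of counts within each library for Fcgr1 over Fcer1g, Fcgr1 over Fcgr2b, and Syk over Inpp5d (vertical axes, linear, from 0), 1 point per library with its number, and mean with SD beside each group. The 7 MAL-BG libraries do not overlap the other 9 in any of these 3 panels.

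The wider pathway was read from 112 further genes listed by role, of which 103 were tested. Against CON, 20 were called higher and 5 lower, with a median log2 difference of 0.23, and against MAL 16 and 11, with a median of 0.09. These shares of 19.4% higher and 4.85% lower against CON stand beside the 11.4% and 21.7% of all genes given above. In MAL versus CON 0 of the 103 were called by edgeR or by DESeq2, and 2 had an unadjusted p under 0.05 in edgeR.

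Among ITAM adaptors and receptors coupled to them, 4 of 19 (21.1%) were called higher and 2 (10.5%) lower against CON. Of all genes tested, 11.4% were called higher and 21.7% lower. Trem2, the microglial lipid receptor that signals through Tyrobp, was at 613 to 1029 CPM in CON, 554 to 1080.4 in MAL, and 1137 to 2331 in MAL-BG, with no overlap, and rose by 1.29 on the log2 scale against CON (edgeR adjusted p = 0.000325). Its partner Tyrobp (DAP12) was at 554 to 672 CPM in CON, 473 to 629.7 in MAL, and 333 to 852 in MAL-BG, with a log2 difference of 0.02 against CON (adjusted p = 0.950). Neither Tyrobp nor Fcer1g, another ITAM chain, was called, and the 2 were not compared with each other. Cd79b, an ITAM chain of the B cell receptor that microglia also express, rose by 1.51, the C-type lectin Clec4d by 1.68, and Clec5a by 0.58, while Cd300ld fell by 0.79 on the log2 scale. Clec5a lay at the fold threshold and was called in 6 of the 16 fits that left out 1 library (0.51 to 0.66). B cell markers summed to 2.20 to 12.2 CPM over all libraries, and Clec4d is also a gene of neutrophils, whose markers rose.

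Of the other Fc receptors and Fc receptor-like genes, 1 of 6 tested was called, Fcrls, a microglial Fc receptor-like gene, which rose by 0.79 on the log2 scale against CON (edgeR adjusted p = 0.0022) and by 0.81 against MAL (adjusted p = 0.00112). Among tyrosine kinases, 2 of 13 (15.4%) were called higher against CON and 0 lower, beside 11.4% and 21.7% of all genes tested. Btk, which acts beside Syk upstream of Plcg2, rose by 0.75, and Lck, a kinase of T and NK cells, by 1.22, at 5.64 to 11.6 CPM in MAL-BG. Lyn and Fgr, Src family kinases of myeloid cells, were not called against CON, with log2 differences of 0.52 for Lyn (adjusted p = 0.0524) and -0.42 for Fgr (adjusted p = 0.255). With 1 library left out, Lyn was called in 4 of the 16 fits and Fgr in 1, without MAL-BG 5. Fgr was lower against MAL (-0.94, adjusted p = 0.0110).

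Adaptors and effectors were divided. Among adaptors, 3 of 15 were called higher and 1 lower against CON. Lat2 (NTAL), a scaffold of the membrane, rose by 1.31 on the log2 scale and Sh3bp2 by 0.66, a call lost without CON 2 or CON 4 (0.54). Cbl, a ubiquitin ligase that removes activated receptors and kinases, fell by 1.74 (edgeR adjusted p = 0.000185), from 43.9 to 49.3 CPM in CON to 8.66 to 30.7 in MAL-BG. Among 19 effectors 1 (5.26%) was called higher and 1 (5.26%) lower against CON, both below these shares of all genes. Itpr2, a calcium channel opened by the product of phospholipase C, rose by 1.29, and Plcg1, the paralog of Plcg2, fell by 1.34, from 91.3 to 113 CPM in CON to 22.5 to 80.9 in MAL-BG.

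Calls on the inhibitory side were mostly higher, as they were over the wider pathway, with 20 higher and 5 lower against CON. Among 16 ITIM receptors, 6 (37.5%) were called higher and 1 (6.25%) lower against CON, beside 11.4% and 21.7% of all genes tested. The median log2 difference of the 16 was 0.55. Sirpa, which binds CD47 and restrains phagocytosis, was at 1260.0 to 2403 CPM in CON, 1329 to 2458 in MAL, and 2817 to 5666 in MAL-BG and rose by 1.33 on the log2 scale (edgeR adjusted p = 0.00048). Siglece, a receptor for sialic acids, rose by 1.34, Clec4a2 by 0.88, and Pecam1, also a gene of endothelium, by 0.77. The call of Pecam1 was lost without CON 1 (0.55), CON 2 (0.72), CON 3 (0.72), or MAL-BG 3 (0.57). Of 6 endothelium markers, 1 was called against CON, Cldn5 (1.58), with sums of 459 to 1605 CPM in CON and 914 to 3100 in MAL-BG, and their part in the Pecam1 value was not tested. Lilrb4a, an inhibitory receptor of myeloid cells, was the exception and fell by 1.58, from 21.6 to 29.3 CPM in CON to 4.05 to 18.3 in MAL-BG. Of 15 phosphatases and inhibitory adaptors, 3 were called higher against CON, with Dok1 at 0.70, Sla at 0.62, and Ubash3b at 0.58 on the log2 scale. With 1 library left out, Sla was called in 13 of 16 fits (lost without CON 2, CON 4, or MAL-BG 6, 0.48 to 0.55) and Ubash3b in 7 of 16 (0.48 to 0.77 over all). Ptpn6 (SHP-1), the phosphatase that ITIMs recruit, showed 0.13 (edgeR adjusted p = 0.585). Ptprc (CD45), the phosphatase that keeps Src family kinases active, showed 0.01 (edgeR adjusted p = 0.972). With the offsets for length and GC content, which also changed the scaling, Ptprc was at 0.62 (edgeR adjusted p = 0.0181).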

How the data were processed

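RNA-Seq of CD11b+ brain cells was analysed for 16 libraries, each assigned to its group by its column name, where a number follows the group. Per the labels and the Methods, the authors aligned paired reads of stranded poly(A) libraries to GRCm38.p6 with STAR, counted them with HTSeq, and deposited raw counts per gene. The strand option, mode, and annotation of counting are not given in the sources used here. Counts were analysed in R 4.3.3 with edgeR 4.0.16. A gene entered the tests when over 10 counts were seen in 4 or more libraries. Sizes were scaled by TMM, and 1 quasi-likelihood fit held the 3 groups, without a batch term. The study's own model had one, but which library belongs to which batch is not given in the sources used here, so effects of batch were not tested. CPM are relative to the scaled sizes, and correlations used log2 CPM with a prior count of 2. Single values were compared by two-sided exact permutation tests. The steps were tested on simulated data. Alternatives were other scalings, DESeq2 1.42.0, other filters, no fold threshold, fits of the compared groups only, and thinning to 10312703 counts. Others were offsets for length and GC content, used with mean log2 CPM scaling in place of TMM, and each library left out in turn. Leaving out CON 1 and MAL 4 together, another transcript of Fcgr2b, and the ratios were added after seeing the data. Of the wider pathway, genes named were up to 5 per list that were called in MAL-BG versus CON, with the largest change and a mean of at least 5 CPM, plus Tyrobp, Trem2, Lyn, Fgr, Btk, Ptpn6, Ptprc, and Lilrb4a. The 10 genes and all lists were chosen with earlier results of these data known. A gene that the rule names and a marker are not reported here. Of the 112 pathway genes, 110 matched a row by symbol.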

Additional observations from a re-analysis of the deposited data

Results flagged for a closer look

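Within groups, 8 of 75 sets of values tested held a library whose gap to its nearest neighbour was large against the range of its group (Dixon's test at the 95% level). Chance flags about 5% of such sets. Fcgr2b was at 328 CPM in MAL-BG 1, with the next MAL-BG library at 232 CPM. Fcgrt was at 212 CPM in MAL 4 and at 135 CPM or less in the other MAL libraries. Fcer1g was at 703 CPM in MAL 4, against 437 CPM at most in the other MAL libraries.

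The other 5 concern marker sums. In MAL-BG 5, neutrophil markers summed to 12982 CPM (next 2979) and monocyte markers to 1417 CPM (next 443). In MAL 4, border macrophage markers summed to 918 CPM (next 387) and B cell markers to 12.2 CPM (next 6.71). In MAL-BG 3, choroid plexus markers summed to 12883 CPM (next 5774). MAL 4 was thus the library named most often, and values without it and CON 1 stand beside the results. The part of these cells in the values of the receptors was not tested.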

How the results depend on the processing

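Fcgr1, Fcgrt, and Vav1 were called in both MAL-BG comparisons in all 16 fits that left out 1 library and under 9 of 9 other alternatives, microglia marker scaling and the removed fold threshold apart. Fcgr2b, Fcgr4, and Inpp5d lay near the fold threshold, and their gained and lost calls stand beside their values, as do those of Clec5a, Lyn, Fgr, Sh3bp2, Pecam1, Sla, Ubash3b, and Ptprc. Clec5a and Ubash3b also lost their calls with upper-quartile scaling, with more than 50 counts required, in fits of the compared groups only, and after thinning, and Sla with more than 50 counts. The cause of these changes was not tested unless the alternative shows it. Setting all libraries to the same microglia marker level shifted the median log2 difference of all genes to -1.30 against CON and -1.17 against MAL, so calls turned by construction. Under it 0 of the 10 genes were called higher and 7 lower against CON, and 0 higher and 6 lower against MAL. Of the pathway genes 0 were higher and 76 lower against CON, and 0 higher and 81 lower against MAL. Among all 14565 genes, 12578 were called lower against CON and 12046 against MAL, so the lower calls were not particular to these lists. Log2 differences against CON were then -0.34 for Fcgr1, -0.65 for Fcgr2b, -0.82 for Fcgr3, -0.59 for Fcgr4, -0.27 for Fcgrt, -0.92 for Fcer1g, -1.17 for Plcg2, -0.40 for Vav1, and -0.61 for Inpp5d. For named pathway genes they were -0.66 (Clec5a), -0.43 (Fcrls), -0.50 (Btk), -0.54 (Sh3bp2), -0.34 (Clec4a2), -0.58 (Pecam1), -0.53 (Dok1), -0.60 (Sla), -0.65 (Ubash3b), -1.22 (Tyrobp), -0.70 (Lyn), -1.09 (Ptpn6), and -1.22 (Ptprc). Against MAL they were -0.35 for Fcgr1, -0.65 for Fcgr2b, -0.68 for Fcgr3, -0.91 for Fcgr4, -0.094 for Fcgrt, -0.81 for Fcer1g, -0.46 for Vav1, and -0.56 for Inpp5d. In MAL versus CON, Fcer1g was at -0.11, Syk at -0.0657, and Inpp5d at -0.0518.

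Offsets for length and GC content, used with mean log2 CPM scaling in place of TMM, shifted the all-gene median to 0.25 against CON and 0.24 against MAL. Against CON, 3612 genes were then higher and 2266 lower in place of 1659 and 3161. The offsets and the scaling were not tested apart. Together they gave 41 pathway genes higher against CON, 33 against MAL, and 5 of the 10 genes against MAL. They turned Syk to 0.32 against CON and 0.28 against MAL, and Plcg2 to 0.13 against MAL. In MAL versus CON they turned Fcgr3 to 0.0035 and Fcgrt to 0.0537. Without CON 1 and MAL 4, 32 pathway genes were called higher against CON and 25 against MAL, 5 of the 10 genes were higher against MAL, Syk was at 0.082 against CON, and Fcgr3 at 0.061 in MAL versus CON. Over all 14513 genes of that fit, 2532 were called higher against CON and 2192 against MAL. With no fold threshold, 5 of the 10 genes and 28 pathway genes were higher against MAL, and 8 pathway genes lower against CON.

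Other turns of sign were in differences near 0. Fcer1g in MAL versus CON was at -0.0072 with DESeq2 size factors and with DESeq2, -0.0032 with more than 50 counts required, and -0.0026 after thinning. Against CON, Tyrobp was at -0.0276 with more than 50 counts, and Ptprc at -0.0103 with upper-quartile scaling, -0.0377 with more than 50 counts, and -0.00193 in the fit of the compared groups only. With each library left out in turn, 3 to 6 of the 10 genes were called higher against CON (3 without CON 2 or CON 4) and 3 to 5 against MAL (5 without MAL 4), and 4 to 9 pathway genes were lower against CON (8 without CON 1, 9 without MAL-BG 5 or 6). Ranges that crossed 0 against CON were -0.059 to 0.18 for Plcg2, -0.0897 to 0.18 for Tyrobp, and -0.11 to 0.12 for Ptprc, and against MAL -0.21 to 0.0185 for Plcg2. In MAL versus CON they were -0.0014 to 0.30 for Fcgr1, -0.0314 to 0.30 for Fcgr2b, -0.12 to 0.11 for Fcgr3, -0.22 to 0.0539 for Fcgrt, -0.19 to 0.19 for Fcer1g, -0.0812 to 0.21 for Syk, and -0.0441 to 0.23 for Inpp5d.

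Receptor shares depend on length by construction. In CON, MAL, and MAL-BG, counts not divided by length gave 24.0%, 25.4%, and 30.6% for Fcgr1, 17.3%, 18.2%, and 18.0% for Fcgr2b, and 56.8%, 54.0%, and 49.4% for Fcgr3, with 2.43% in MAL and 2.02% in MAL-BG for Fcgr4. The shortest coding transcript of Fcgr2b gave 13.4%, 14.3%, and 17.7% for Fcgr1, 23.2%, 24.5%, and 24.9% for Fcgr2b, and 61.2%, 58.4%, and 54.9% for Fcgr3. No paired analysis was possible because the running numbers of the columns match no sample title. Depth did not limit the 10 genes, since each had at least 136 counts in every library.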

Other observations

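Some effectors and adaptors were called lower in MAL-BG versus MAL, at 4 of 19 effectors (21.1%) and 2 of 15 adaptors (13.3%). These shares were not clearly above the 20.2% of all genes tested that were called lower. The genes named here were chosen after their values were seen. Vav1, the family member of blood cells, rose by 0.66 on the log2 scale, while Vav2, which is expressed in many tissues, fell by 1.07 (SE 0.379, edgeR adjusted p = 0.0296) and Vav3 fell by 0.99 (SE 0.264, adjusted p = 0.00656). Vav3 was low, with a mean of 6.80 CPM in MAL and 3.42 CPM in MAL-BG. Against CON, Vav2 (-0.95, adjusted p = 0.0616) and Vav3 (-0.49, adjusted p = 0.174) were not called. Plcg1 fell by 1.23 against MAL (SE 0.260, adjusted p = 0.00142), while its paralog Plcg2 was not called (-0.09), and the difference between the paralogs was not tested. Pik3ap1 (BCAP), an adaptor for PI3K, fell by 1.10 against MAL (SE 0.417, adjusted p = 0.0406), with a mean of 107.7 ± 12.6 CPM in MAL (SD, n = 5) and 50.02 ± 41.5 CPM in MAL-BG (SD, n = 7).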
